A study of Oryctolagus cuniculus with 3 samples.

Results

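Giant coding sequences are taken here as those of at least 7500 bases, chosen by the deposited length alone. There were 166 of them among the 15558 coding sequences with reads in any library, or 1.07%. RNA was sequenced from the back skin of 3 Rex rabbits, full siblings of 1 litter raised together to the age of 42 days, the time of the first moult. Their fur was black, white and chinchilla, and each animal gave 1 library, so that coat colour, animal and library cannot be told apart. Genotypes at coat colour genes are not given in the labels, and the 3 animals shared housing, age and tissue. Depth was 16.2 M assigned reads for black, 14.8 M for white and 15.0 M for chinchilla. With 1 library per coat colour there is no replicate spread and no test across animals, and every difference below describes these libraries. In bulk skin, fewer cells of a type and less RNA per cell cannot be told apart.

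Proteins encoded by very long coding sequences are mostly scaffolds, springs and motors. Vertebrate examples are the sarcomere proteins titin, nebulin and obscurin of muscle, and the spectraplakins and nesprins that tie the cytoskeleton to cell junctions and to the nucleus. Others are laminin chains, perlecan and long collagens of the basement membrane and the dermis, giant cadherins, the dynein heavy chains, and several large kinases and ubiquitin ligases. Skin holds many of these, in keratinocytes, fibroblasts, vessels, nerves and the thin striated muscle under the skin. Which of them any giant sequence is, is not known here: the deposited lists carry Ensembl protein identifiers without symbols, and 0 of 38822 entries of the RefSeq gene table hold an Ensembl identifier. Each is therefore named by its length in bases, the tissue could not be checked against marker genes, and gene lists could not be evaluated.

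Giant sequences were long even among themselves. Their median length was 9375 bases, 71 had at least 10000 bases, 13 at least 15000 and 3 at least 20000. The longest had 93396 bases and stood far from the next, of 21936 bases. At the lower edge, the shortest giant sequence (7554 bases) had 30.8 RPKM (reads per kilobase of length, scaled to the assigned reads of the library) in black skin, 21.8 in white and 29.0 in chinchilla. The next, of 7569, 7584 and 7590 bases, had 54.0, 1.92 and 48.1 RPKM in black skin. Of the 4 just below the minimum, 2 had 7488 bases, with 24.2 and 87.7 RPKM in black, and those of 7473 and 7449 bases had 3.47 and 17.8 RPKM. The levels on the 2 sides of the minimum overlapped.

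Nearly all giant sequences were detected, and 158 of 166 had at least 1 read in every library. Black skin had reads for 161 (97.0%), white for 165 (99.4%) and chinchilla for 159 (95.8%). Over all coding sequences these shares were 95.1%, 93.7% and 94.8%. At 5000 to under 7500 bases they were 97.9%, 97.9% and 97.3%, so frequent detection was not particular to the giant class. The 8 with no read in at least 1 library were close to empty throughout, and their highest read number in any library was 4. At the median giant length, an expected number of up to 3 reads is possible behind a count of 0, which is 0.0197 RPKM in black skin, 0.0216 in white and 0.0213 in chinchilla. Length thus made low levels visible: 3 reads on a sequence of 7500 bases are 0.0246 RPKM in black skin. This limit covers counting error only, because the labels name no molecular identifiers, without which copies of 1 molecule count again.

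Levels below 1 RPKM were more frequent among them than in the next shorter class or over all sequences. In all 3 libraries, 42 giant sequences (25.3%) stayed below 1 RPKM, against 16.0% of the 374 sequences of 5000 to under 7500 bases and 19.0% of all. At least 1 RPKM was reached by 124 giant sequences in black skin, 113 in white and 116 in chinchilla (74.7%, 68.1% and 69.9%). Over all coding sequences the shares were 78.1%, 76.4% and 77.9%. The lower shares of the giant class lay in its longer members. At 7500 to under 10000 bases they were 82.1%, 77.9% and 77.9%, near the 82.9%, 77.5% and 79.9% of 5000 to under 7500 bases. At 10000 to under 13000 bases they were 60.5%, 52.6% and 55.3%, and from 13000 bases 69.7%, 57.6% and 63.6%. The 113 giant sequences of white skin had at least 1 RPKM in every library, 3 had it in black and chinchilla skin, and the other 8 in black skin alone. No giant sequence passed 1 RPKM in white or chinchilla skin without also passing it in black.

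Median levels of the 166 were 11.4 RPKM in black skin, 4.89 in white and 5.23 in chinchilla. Over all coding sequences the medians were close together, at 12.7, 11.1 and 11.7 RPKM in the same order. Giant sequences took 3.59% of assigned reads in black skin, 1.90% in white and 2.11% in chinchilla. Without the most abundant one, of 8460 bases, the shares were 2.67%, 1.34% and 1.52%. The black library thus gave giant sequences a larger part of its reads than either other library with and without that sequence. This was not particular to the giant class. At 5000 to under 7500 bases the medians were 12.4, 7.28 and 7.25 RPKM, and the shares of reads 5.85%, 3.65% and 3.96%, in the same order.

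**Figure D1:**
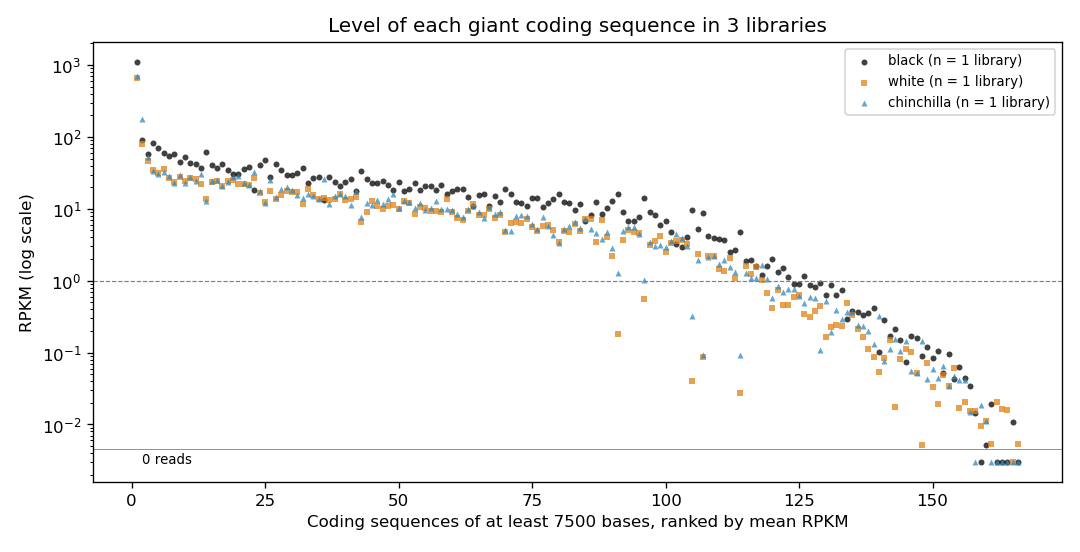
RPKM (log axis) of each of the 166 giant coding sequences in the black, white and chinchilla library, ranked by mean level. The dashed line marks 1 RPKM, and symbols below the grey line are counts of 0. Black circles lie above both other symbols over most of the range, and a few sequences with a black level of 4.72 to 16.2 RPKM have white or chinchilla levels far below their neighbours.

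The most abundant giant sequences were seen in all 3 skins, and their order by level differed between the libraries. The 8460-base sequence led by a wide margin, with 1088 RPKM in black skin, 662 in white and 697 in chinchilla. It alone held 25.6% of the giant reads in black skin, 29.5% in white and 27.9% in chinchilla, and it was covered over 99.99% of its length in each. No other giant sequence passed 100 RPKM in black or white skin.

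Second by mean level, the 8811-base sequence went another way, with 89.7 RPKM in black skin, 78.7 in white and 175 in chinchilla. Black and white skin lay close together there and chinchilla skin stood above both. Its ratio of chinchilla to white was 2.22 (exact 95% counting interval 2.17 to 2.28), and of black to chinchilla 0.513 (0.502 to 0.524). Such intervals (Clopper-Pearson, on the split of the reads between 2 libraries) cover counting error only.

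The next, of 7656 bases, had nearer values, at 57.5 RPKM in black skin, 46.2 in white and 52.5 in chinchilla. After it, the 7872-base sequence had 83.0, 34.9 and 33.4 RPKM in the same order. The more abundant of 2 sequences of 13092 bases had 71.1, 31.9 and 30.9 RPKM. In the latter 2, white and chinchilla skin were alike and black skin stood more than 2-fold above them.

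The other 5 of the 10 most abundant ran between these patterns. Sequences of 7854 bases (the more abundant of 2) and 7713 bases had 59.9 and 45.4 RPKM in black against 35.8 and 28.0 in white and 32.6 and 29.5 in chinchilla skin. Those of 7569, 7806 and 8748 bases had 54.0, 58.7 and 53.2 RPKM in black, 26.5, 23.4 and 24.1 in white, and 28.7, 22.7 and 23.1 in chinchilla skin. Black was the highest library for each of these 5. Of the 10 together, the 8811-base sequence was the exception in which another library was highest.

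Black skin against white skin sets skin under pigmented fur against skin under white fur. Differences are given as log2(RPKM + 1) in one library minus the same in the other, which shrinks the fold of sequences with low levels, over those with at least 1 RPKM in either library. Of 124 giant sequences so compared, 118 were higher in black by any amount, where 52% of all 12401 coding sequences were. The median difference of the giant sequences was 0.81, with the middle of the distribution (quartiles) from 0.55 to 1.16, against a median of 0.02 over all. At least 2-fold higher in black were 43 of the 124 (34.7%) and 0 were 2-fold lower. Over all coding sequences, 5.64% were 2-fold higher and 1.67% lower. With a pseudocount of 5 in place of 1, the count of 43 became 19.

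That shift went with a rise of black with length that runs through the whole table. The median difference of black from white was 0.14 at 1500 to under 3000 bases, 0.39 at 3000 to under 5000, 0.61 at 5000 to under 7500 and 0.81 in the giant class. Within the giant class it was 0.75 for 78 sequences of 7500 to under 10000 bases, 0.76 for 23 of 10000 to under 13000 and 1.13 for 23 of at least 13000 bases. In the last group 15 of 23 were 2-fold higher in black, and 20 of 78 in the first. The rise therefore did not stop at 7500 bases.

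To set the rise aside, a lowess curve on log2 length, fitted on all compared sequences, was subtracted. The curve stood between 0.70 and 1.73 over the giant lengths for black against white. Relative to it, the giant sequences had a median of 0.04, and 65 of 124 lay above it, against 48.2% of all coding sequences. Subtracting the median of 5000 to under 7500 bases instead left 0.20. At least 2-fold above the curve were 9 giant sequences (7.26%) and 2-fold below it 2 (1.61%), where the whole table had 4.46% and 1.31%. At the far right, few sequences define the curve, and its value for the 93396-base sequence rests in part on that sequence itself.

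Black against chinchilla skin compares the skins under the coloured coats. It shares the black library with the comparison above, so the values of both are given side by side and their likeness is not used. Of 124 giant sequences, 117 were higher in black by any amount, against 47.5% of all 12516 compared. The median difference was 0.73 (quartiles 0.46 to 1.07), against -0.04 over all. At least 2-fold higher in black were 38 (30.6%) and 0 were lower, where the whole table had 7.21% higher and 4.23% lower. Here the count of 38 became 19 with a pseudocount of 5.

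The difference was again higher in longer classes, though not in steady steps within the giant class. Medians were 0.57 at 5000 to under 7500 bases, 0.71 at 7500 to under 10000, 0.62 at 10000 to under 13000 and 0.98 from 13000 bases, and the rank correlation with length over the 124 was 0.13. Relative to the curve the giant median was -0.01, and 61 of 124 lay above it, against 49.3% of all. That sign turned when the median of 5000 to under 7500 bases was subtracted instead, which left 0.16. At least 2-fold above the curve were 8 giant sequences, and 2-fold below it 6, where 6.66% and 3.15% of all were.

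Chinchilla and white skin were close for giant sequences. Of 116 compared, 78 were higher in chinchilla by any amount, against 57% of all 12310, and the median difference was 0.09 (quartiles -0.04 to 0.19), against 0.05 over all. Scaled by the median ratio between libraries, these medians were 0.04 and -0.01. One giant sequence, that of 8811 bases, was 2-fold higher in chinchilla and 0 were lower, where the whole table had 1.78% and 1.06%. At 5000 to under 7500 bases these shares were 0.99% and 0%. The standard deviation of the differences was 0.25 among giant sequences, 0.28 at 5000 to under 7500 bases and 0.41 over all. The narrow spread was thus shared with the next shorter class. The length curve stayed between 0.06 and 0.10 over the giant lengths. Relative to it, 65 of 116 giant sequences were higher in chinchilla, against 49.8% of all, with 1 at least 2-fold higher and 0 lower, against 1.53% and 1.23%.

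Within that narrow spread, the longer giant sequences leaned towards chinchilla. Of 21 compared at 10000 to under 13000 bases, 17 were higher in chinchilla, with a median of 0.16. From 13000 bases it was 19 of 21, with a median of 0.14. Among 74 of 7500 to under 10000 bases, 42 were higher in chinchilla and the median was 0.03. These shifts are small beside the 2-fold threshold and have no replicate check.

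**Figure D2:**
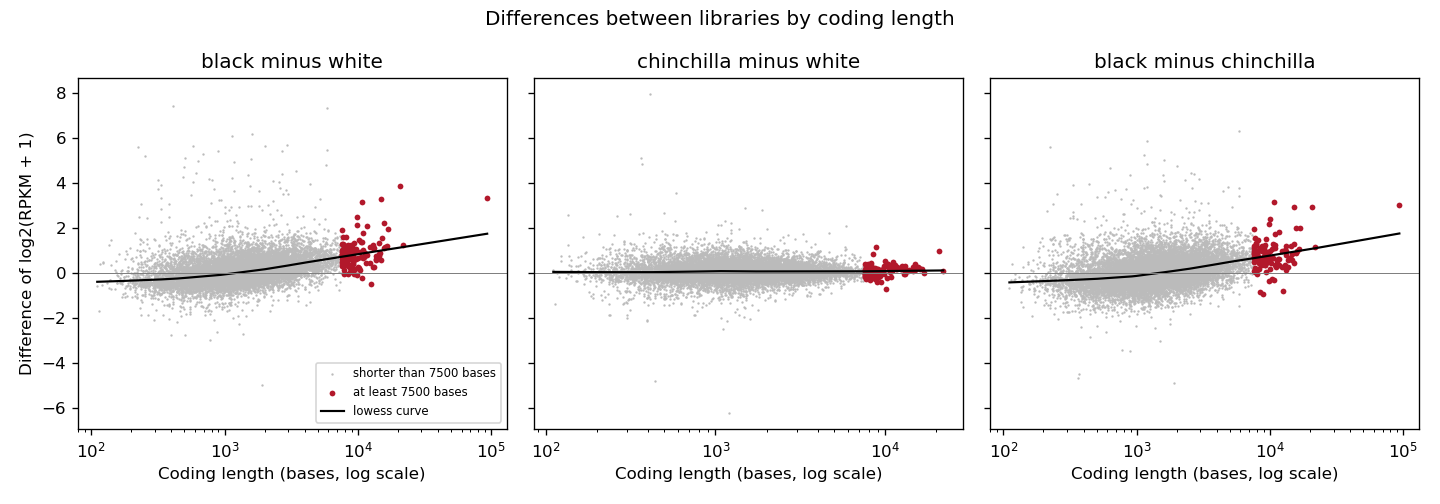
Difference of log2(RPKM + 1) against coding length (log axis) for the 3 pairs of libraries, over sequences with at least 1 RPKM in either. Grey points are shorter than 7500 bases, red points are giant sequences and the line is the lowess curve. The giant sequences scatter around a rising curve in both panels with black (medians 0.81 and 0.73) and around a flat one for chinchilla minus white (median 0.09).

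Black was the highest of the 3 libraries for 116 of the 124 giant sequences with at least 1 RPKM in any, chinchilla for 7 and white for 1. White was the lowest for 81, chinchilla for 38 and black for 5. Over all coding sequences with at least 1 RPKM, black was highest in 40.3%, chinchilla in 37.9% and white in 21.8%. The share for giant sequences was 93.5% for black, with the length trend kept.

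Against both other libraries at once, 34 giant sequences were 2-fold higher in black, or 27.4% of 124, where 4.18% of all coding sequences were. Both comparisons behind that count share the black library. In the other 5 directions (black lower, white or chinchilla higher or lower than both others) the count was 0 of 124, where the whole table had 0.817% for black lower, 0.23% and 0.333% for white higher and lower, and 0.801% and 0.587% for chinchilla. The 34 had medians of 18.9 RPKM in black skin, 6.79 in white and 7.69 in chinchilla, and their lengths had a median of 10437 bases. Relative to the length curves, 8 of 124 giant sequences were 2-fold higher in black than in both others, against 3.19% of all sequences, and 2 (of 12540 and 10719 bases) were 2-fold lower, against 0.658%. On that scale chinchilla was 2-fold higher than both others in 1, of 8811 bases, against 0.547%, and lower in 0, against 0.722%. White was higher in 0 and lower in 0, against 0.174% and 0.317%.

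Among the 34, 5 had 4.72 to 16.2 RPKM in black skin and at most 1.29 RPKM in the others, a group singled out after its values were seen. Together they had 25661 reads in black skin, 254 in white and 1109 in chinchilla. That was 4.40% of giant reads in black skin, 0.0903% in white and 0.350% in chinchilla. Without them, and without the 8460-base sequence, giant sequences still took 2.51% of assigned reads in black skin, 1.33% in white and 1.51% in chinchilla. The median difference over the remaining 119 with at least 1 RPKM in black was 0.79 against white and 0.70 against chinchilla.

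The 93396-base sequence, the longest in the data, had 14415 reads (9.50 RPKM) in black skin, 55 reads (0.0397 RPKM) in white skin and 448 reads (0.320 RPKM) in chinchilla. Black was 239-fold above white (counting interval 184 to 318) and 29.7-fold above chinchilla (27.0 to 32.7), and chinchilla 8.05-fold above white (6.08 to 10.9). The 3 libraries were thus far apart in the order black, chinchilla, white. Reads touched 33.9% of the sequence in black, or 31643 bases, although reads of 100 bases spread evenly at that number would touch nearly all of it. In white they touched 2998 bases and in chinchilla 6024.

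ENSOCUP00000015041, of 20730 bases, followed the same order, with 5470 reads (16.2 RPKM) in black skin, 56 (0.182 RPKM) in white skin and 400 (1.29 RPKM) in chinchilla. Black was 89.2-fold above white (68.6 to 118) and 12.6-fold above chinchilla (11.4 to 14.0), and chinchilla was 7.06-fold above white (5.33 to 9.52). It had the largest black minus white difference of the giant sequences, at 3.87, or 2.75 above the length curve. Its covered share was 76.8% in black skin, 11.8% in white and 24.8% in chinchilla. Like the longest sequence, it was left partly uncovered in black skin at that read number.

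The 15048-base sequence had 3495 reads (14.3 RPKM) in black skin, 125 (0.560 RPKM) in white skin and 232 (1.03 RPKM) in chinchilla. Black was 25.5-fold above white (21.4 to 30.8) and 13.9-fold above chinchilla (12.2 to 16.0), and chinchilla 1.84-fold above white (1.47 to 2.30). Again the order was black, chinchilla, white, with a smaller gap between the last 2.

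The remaining 2 had few reads in white and chinchilla skin alike. ENSOCUP00000001096, of 10734 bases, had 1520 reads (8.72 RPKM) in black skin, 14 (0.0880 RPKM) in white skin and 15 (0.0932 RPKM) in chinchilla. Black was 99.1-fold above white (58.9 to 182) and 93.6-fold above chinchilla (56.6 to 168), and the ratio of chinchilla to white was 1.06 with an interval from 0.477 to 2.37. A difference between white and chinchilla was not detectable at this depth.

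The 9921-base sequence had 761 reads (4.72 RPKM) in black skin, 4 (0.0272 RPKM) in white skin and 14 (0.0941 RPKM) in chinchilla. Black was 174-fold above white (67.6 to 639) and 50.2-fold above chinchilla (29.7 to 92.3). With 4 reads in white, the ratio of chinchilla to white, 3.46, had an interval from 1.09 to 14.4. Covered shares in black were 93.4% for this sequence and 95.5% for that of 10734 bases, so these 2 were read along nearly their whole length there.

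The other 29 of the 34 were present in all 3 skins. Their medians were 23.0 RPKM in black skin, 8.45 in white and 9.80 in chinchilla, and the lowest level of any of them in any library was 2.23 RPKM. Differences of black from white ran from 1.02 to 2.19 with a median of 1.29, and from chinchilla from 1.01 to 2.17 with a median of 1.21. In chinchilla against white, 18 of the 29 were higher and the median was 0.09. The set was chosen by its 2-fold difference of black from both, so these sizes describe it and carry no support.

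Largest against chinchilla among the 29, on the log2(RPKM + 1) scale, was the 9873-base sequence. It had 62.1 RPKM in black skin, 13.5 in white and 13.04 in chinchilla. Its ratio of black to white was 4.597 (4.38 to 4.83) and of black to chinchilla 4.76 (4.53 to 5.00). It was covered almost fully in all, at 98.4%, 96.8% and 98.1%. The 15762-base sequence had 33.4 RPKM in black skin, 6.53 in white and 7.60 in chinchilla, ratios of 5.11 (4.84 to 5.40) and 4.40 (4.18 to 4.63). With the length trend removed, both stayed 2-fold above white and chinchilla.

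Of 3 others of the 29, 1 exceeded these by its ratio of black to white, though not on the log2(RPKM + 1) scale. An 11775-base sequence had 12.7 RPKM in black skin, 2.23 in white and 2.88 in chinchilla, a 16896-base one had 16.1, 3.46 and 3.39 RPKM, and a 7590-base one 48.1, 12.4 and 11.9 RPKM. Black was 5.69-fold (5.11 to 6.34), 4.67-fold (4.34 to 5.03) and 3.89-fold (3.66 to 4.12) above white for these. In the last 2, the ratio of chinchilla to white was 0.981 (0.891 to 1.08) and 0.961 (0.891 to 1.04), intervals that included 1.

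Long members of the set with moderate differences included the second longest giant sequence. At 21936 bases it had 40.7 RPKM in black skin, 16.6 in white and 17.8 in chinchilla, and black was 2.45-fold (2.37 to 2.53) above white. The 16458-base sequence had 14.0, 5.51 and 6.17 RPKM, and the 14346-base one 19.0, 7.05 and 7.77 RPKM. For these long sequences the difference of black from white (1.24, 1.20 and 1.31) exceeded the length curve by 0.11, 0.18 and 0.35.

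Black was again the highest library in the remaining 17 of the 29. The 15093-base sequence had 36.4 RPKM in black skin, 11.8 in white and 14.3 in chinchilla, and that of 13050 bases had 24.5, 9.96 and 11.6 RPKM. Of 5 between 10000 and 13000 bases, those of 10290, 10821 and 10896 bases had 26.2, 23.0 and 18.8 RPKM in black against 9.04, 8.45 and 4.79 in white and 12.1, 10.3 and 5.08 in chinchilla. Those of 10584 and 10854 bases had 14.3 and 8.28 RPKM in black skin, 4.93 and 3.57 in white, and 5.32 and 3.01 in chinchilla. In these 7 black stood well above libraries that were near each other, with differences from white between 1.02 and 1.77.

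The other 10 were shorter than 10000 bases. Sequences of 8103, 9102, 8604 and 9054 bases had 41.9, 28.0, 23.3 and 21.5 RPKM in black, 13.5, 13.2, 9.82 and 9.04 in white, and 14.5, 11.6, 10.2 and 9.80 in chinchilla. At 8898 (the less abundant of 2), 7695 and 9333 bases, black had 18.6, 16.2 and 13.9 RPKM, white 7.41, 6.27 and 5.04, and chinchilla 8.38, 4.93 and 4.37. At 8469, 7791 and 7641 bases (for the last, the more abundant of 2), black had 12.6, 12.3 and 9.11 RPKM, white 4.84, 3.41 and 3.12, and chinchilla 5.31, 4.64 and 3.46. White was the lower of the other libraries in most of these, and chinchilla in those of 9102, 7695 and 9333 bases.

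**Figure D3:**
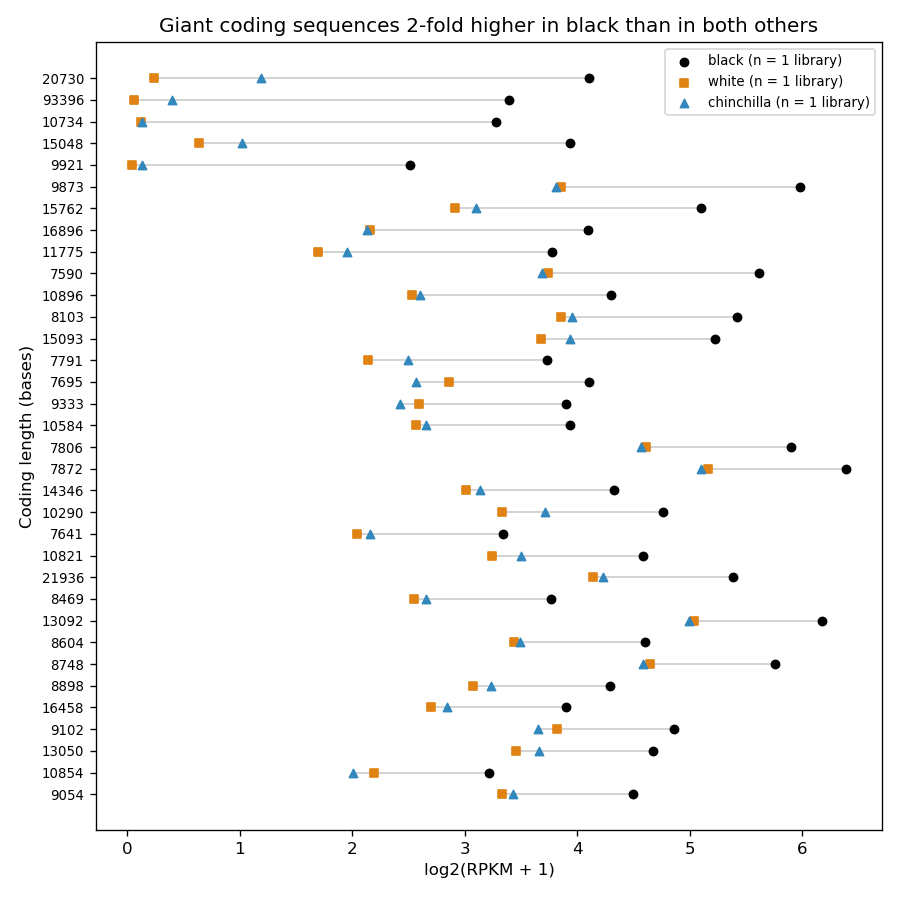
log2(RPKM + 1) of the 34 giant sequences that were 2-fold higher in black than in both other libraries, by coding length on the vertical axis and ordered by the mean difference of black from the others. Each symbol is 1 library. The upper 5 have white and chinchilla levels of at most 1.29 RPKM, whereas in the other 29 no library lies below 2.23 RPKM.

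Few giant sequences were lower in black. ENSOCUP00000006112, of 12540 bases, was the clearest, with 3767 reads (18.5 RPKM) in black skin, 4983 (26.8 RPKM) in white skin and 6208 (33.0 RPKM) in chinchilla. Its ratio of black to white was 0.690 (0.661 to 0.720) and of black to chinchilla 0.560 (0.538 to 0.584). The difference from white was -0.51, or -1.42 relative to the length curve, and that from chinchilla -0.80, or -1.65. It was the lowest of the 124 against white on either scale.

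ENSOCUP00000023792, of 8475 bases, was level in black and white skin, with 13.5 and 14.0 RPKM, and higher in chinchilla skin with 25.6 RPKM. Chinchilla stood 1.84-fold above white (1.73 to 1.95), and black was 0.525 of chinchilla (0.496 to 0.556). This was the pattern of the 8811-base sequence at a lower level. Relative to the length curve, those 2 and the 12540-base sequence were 2-fold below chinchilla in black skin, with values of -1.57, -1.66 and -1.65. Sequences of 9888, 10719 and 10374 bases, with -1.14, -1.12 and -1.05, complete the 6 that were.

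Lower levels were found in the next 2. The 10719-base sequence had 2.93 RPKM in black skin, 3.69 in white and 3.96 in chinchilla, and its ratio of black to white was 0.795 (0.704 to 0.896). At 9888 bases the values were 3.24, 3.57 and 4.53 RPKM, and the interval of black to white, 0.801 to 1.03, included 1. Sequences of 9366 and 7941 bases had 11.1 and 6.84 RPKM in black and 11.7 and 7.20 in white skin, also with intervals that included 1. Against white, the first of these 4 was lower in black beyond counting error, and the other 3 were not. The ratio of black to chinchilla was 0.739 (0.657 to 0.832) at 10719 bases and 0.715 (0.636 to 0.803) at 9888 bases. For the sequences of 9366 and 7941 bases the interval against chinchilla included 1 as well.

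Chinchilla was lowest against white in the 10086-base sequence, with 8.40 RPKM in black skin, 6.89 in white and 3.80 in chinchilla and a chinchilla to white ratio of 0.552 (0.497 to 0.612). Next came those of 9462, 8898 (the more abundant of 2), 8094 and 7695 bases, with differences of chinchilla from white of -0.42, -0.41, -0.35 and -0.29. At the other end, after those of 8811, 20730 and 8475 bases, the 9951- and 11160-base sequences were higher in chinchilla by 0.50 and 0.45. Of these, the 8811-base sequence alone passed 2-fold on the log2(RPKM + 1) scale. The 20730-base one, 7.06-fold apart by reads, stood at 0.95 on that scale, with a white level of 0.182 RPKM beside a pseudocount of 1.

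Black was higher at every level of abundance tried. The median difference of black from white was 0.63 for 22 sequences with a mean of 1 to 5 RPKM, 0.90 for 65 of 5 to 20 RPKM and 0.73 for 32 of at least 20 RPKM. Relative to the length curve these medians were -0.15, 0.12 and -0.01. Across the 124, the rank correlation of the difference with the mean level was 0.05 and with length 0.19. Each is a description over sequences of the same 2 libraries.

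Coverage gave a second view of the same libraries. The deposited covered share is the part of a coding sequence touched by reads, and all 920 entries with exactly 1 read had 100 covered bases (to the nearest base), so a read counts for 100 bases. Summed over the giant sequences, of 1804134 bases, reads touched 72.9% in black skin, 56.2% in white and 56.8% in chinchilla. Leaving out the 93396-base sequence, it was 75.1%, 59.1% and 59.6%. The median covered share was 96.2% in black skin, 76.7% in white and 73.9% in chinchilla. At least 95% covered were 93 giant sequences of the 166 in black skin, 33 in white and 28 in chinchilla. Over all 15558 coding sequences the counts were 8383, 7733 and 7793 in the same order. Among the 374 of 5000 to under 7500 bases they were 245, 172 and 162. Since black also had more reads on the giant sequences, their shares need to be read at given read numbers.

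From 32 reads per kilobase, median coverage of giant and shorter sequences was near in black skin, and up to 512 reads per kilobase the giant median was lower in the others. Between 64 and 128 reads per kilobase, sequences of 1500 to under 3000 bases had a median covered share of 97.1% in black skin, 96.5% in white and 96.2% in chinchilla. In the same range, 12 giant sequences of black skin had a median of 95.1%, 28 of white skin 82.3% and 28 of chinchilla skin 81.8%. The class of 5000 to under 7500 bases had 97.6%, 92.3% and 91.1%, between the others in white and chinchilla skin.

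The gap was widest at middling read density and narrower at high density. Between 32 and 64 reads per kilobase the giant medians were 90.7% in black (7 sequences), 67.7% in white (16) and 65.9% in chinchilla skin (12), against 90.6%, 90.1% and 89.5% for sequences of 1500 to under 3000 bases. Between 256 and 512 reads per kilobase the giant medians were 99.1% in black (39 sequences), 97.2% in white (21) and 95.2% in chinchilla (26). With 1 to 2 reads per kilobase, where few bases can be touched, giant and shorter medians were 11.5% and 11.2% in black skin, 9.995% and 11.1% in white, and 11.4% and 10.6% in chinchilla. Black also had a gap at 4 to 8 reads per kilobase, where 7 giant sequences had a median of 28.1% against 37.4%. In that range 9 in white skin had 28.9% against 34.9%, and 8 in chinchilla skin had 25.1% against 34.5%.

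Over all bins with at least 20 reference sequences, the median gap of a giant sequence to those of 1500 to under 3000 bases at its read density was -0.38 points in black (156 sequences), -6.01 in white (155) and -8.17 in chinchilla skin (155). More than 10 points below the reference were 12 giant sequences in black skin, 54 in white and 69 in chinchilla. For sequences of 5000 to under 7500 bases the median gaps were 0.06, -1.17 and -1.23 points.

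**Figure D4:**
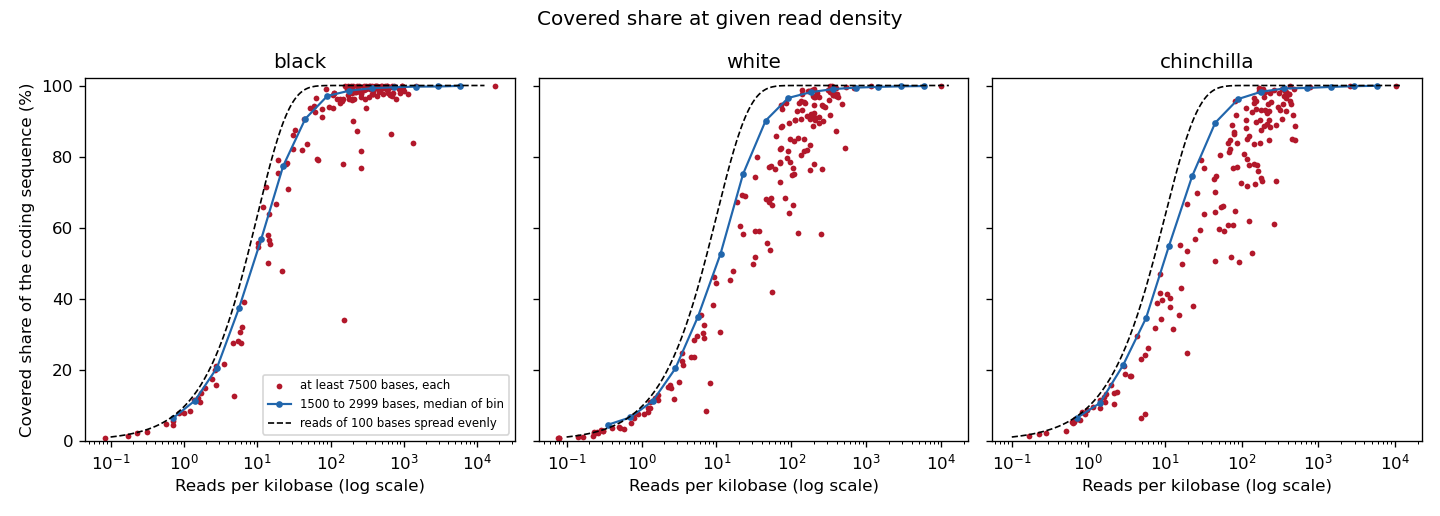
Covered share against reads per kilobase (log axis) in each library. Red points are giant sequences with at least 1 read, the blue line joins medians of sequences of 1500 to under 3000 bases in bins of a factor of 2, and the dashed line is the share that evenly spread reads of 100 bases would cover. In black skin the red points follow the blue line except for a few, and in white and chinchilla skin many fall below it, most of all between 16 and 256 reads per kilobase.

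Evenly spread reads of 100 bases would have covered at least 99% of 112 giant sequences in black skin, 100 in white and 98 in chinchilla. Their actual median covered share was 98.4% in black skin, 90.6% in white and 89.1% in chinchilla, and 1, 15 and 19 of them were below 75%. In white skin the median was 93.9% at 7500 to under 10000 bases, and lower at 10000 to under 13000 (78.6%) and from 13000 bases (81.1%). In chinchilla skin it went from 92.9% to 84.9% and 80.9%, and in black skin from 98.4% to 97.7% and 98.5%. The rank correlation of covered share with length was -0.22 in black skin, -0.48 in white and -0.47 in chinchilla, over sequences of 1 library each that also differ in depth.

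In 98 giant sequences all 3 libraries had that many reads. Black was the best covered library in 94 of them, and the medians were 98.7% in black skin, 90.9% in white and 89.1% in chinchilla. At least 95% covered in every library were 25. Under 90% in white and chinchilla but not in black were 34. Among these 98, read numbers were not matched, and covered share still rose with read density. In white skin the giant median was 67.7% at 32 to 64 reads per kilobase and 97.2% at 256 to 512. Wide gaps were found in sequences with many reads: the 13791-base one, with 6524, 3502 and 3822 reads, was covered over 99.7% in black skin, 76.4% in white and 73.2% in chinchilla. The 16458-base one, with 3733, 1345 and 1524 reads, had 98.6%, 68.2% and 50.2%.

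Under 90% in all 3 libraries were 6. The 7872-base sequence had 83.7% in black skin, 82.5% in white and 84.5% in chinchilla with 10607, 4074 and 3942 reads, so that about the same share stayed untouched at very different depths. In the other 5 black was covered more fully. The 21936-base sequence had 86.2%, 58.2% and 61.0%, the 16896-base one 81.6%, 53.6% and 59.7%, and the 15021-base one 89.9%, 58.4% and 52.9%. The less abundant sequence of 13092 bases had 77.8%, 41.8% and 51.6%, and that of 10719 bases 83.7%, 66.3% and 59.1%. Reads that fit more than 1 place were not counted by the authors, and the part of repeated sequence in these gaps was not tested.

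Matched read numbers gave the same order. In 10 giant sequences, black and white skin had at least 20 reads each and read numbers within 25% of each other. With at least 20 reads in both, white had fewer reads in 132 giant sequences and black in 4. The 10 thus lie at the low end of black against white and may not stand for the class. Black was covered more fully in 10 of 10, by a median of 14.9 percentage points and a range from 0.06 to 21.1. Among 41 sequences of 5000 to under 7500 bases it was 33, with a median of 0.71 points, and among 1686 of 1500 to under 3000 bases it was 936, with a median of 0.06. Over all 5609 matched sequences, 2612 were covered more fully in black and 2261 in white.

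Single pairs show the size of it. The 7815-base sequence was covered over 99.8% in black with 1370 reads, 81.6% in white with 1134 and 77.6% in chinchilla with 1242. At 9366 bases, 1690 reads covered 96.1% in black skin, 1631 covered 76.2% in white and 1525 covered 76.0% in chinchilla. At 7941 bases, 882, 848 and 858 reads covered 97.8%, 84.3% and 80.7%. In each, white and chinchilla skin lay 13.4 to 22.2 points below black.

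Against chinchilla skin, 12 giant sequences were matched and black was covered more fully in 12 of 12, by a median of 5.32 points (0.09 to 24.5). In the class of 5000 to under 7500 bases it was 41 of 59, with a median of 0.55. The black library, and 5 of the sequences, are common to both sets of matched pairs. The 12 likewise lie at the low end of black against chinchilla, which had fewer reads in 130 giant sequences, and black in 8. Between chinchilla and white skin, 95 giant sequences were matched, 40 covered more fully in chinchilla and 54 in white, with a median of -0.60 points. These ranged from -18.1 points in the 16458-base sequence to 12.3 points in the more abundant sequence of 7641 bases, with 397 reads in chinchilla and 354 in white.

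Where black had fewer reads than white, with at least 20 reads in both, coverage was compared again. Black was covered more fully in 4 of 4 giant sequences, those of 9888, 10719, 12540 and 13431 bases, by a median of 11.4 points. At 12540 bases, 3767 reads covered 93.7% in black skin, whereas 4983 covered 87.2% in white and 6208 covered 88.6% in chinchilla. Of 8 giant sequences with fewer reads in black than in chinchilla, 6 were covered more fully in black, with a median difference of 5.12 points, against 35.8% over all coding sequences. Conversely, of 132 giant sequences with fewer reads in white, 2 were covered more fully there. At 5000 to under 7500 bases it was 24 of 302, and over all coding sequences 1926 of 7194. Read numbers were not matched in these counts, and how far they lay apart bears on them. Over all coding sequences with fewer reads in black than in white, 36.6% were covered more fully in black.

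**Figure D5:**
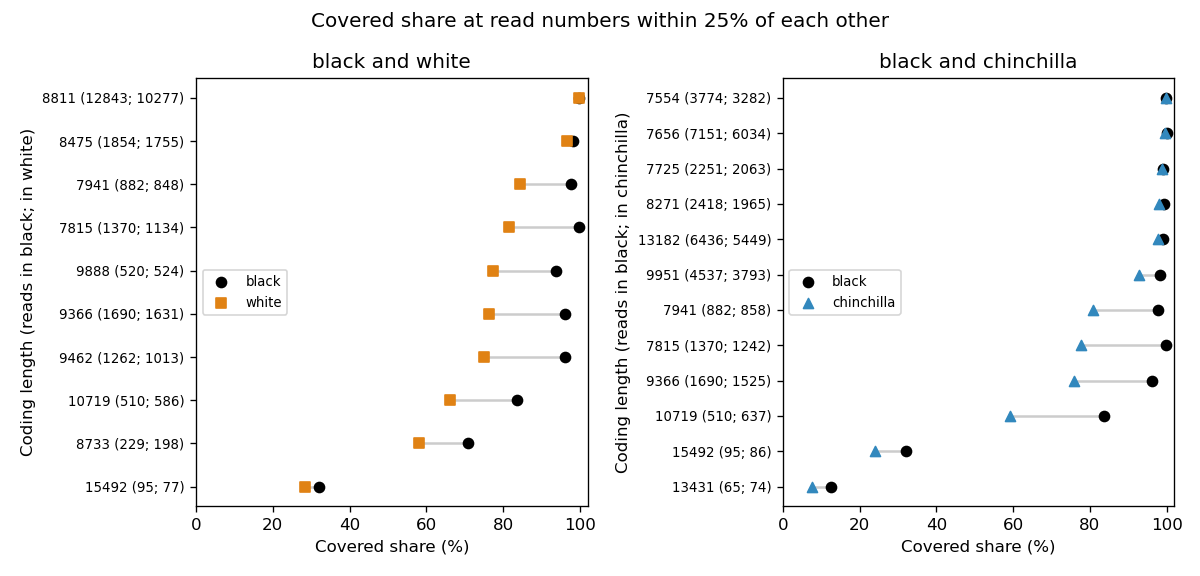
Covered share (%) in black and white (left) and in black and chinchilla skin (right) for giant sequences with 20 reads or more in each of the pair and read numbers no more than 25% apart. Labels give the coding length and the reads in each library. Black lies to the right in 10 of 10 and 12 of 12 pairs, with gaps up to 21.1 and 24.5 points.

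The gap in coverage and the difference in level both went with length, and the part of either in the other was not tested. Split by covered share in white skin, the 98 sequences with enough reads gave the following differences of black from white. For 33 covered over at least 95% the median was 0.72, for 52 between 75% and 95% it was 0.86, and for 13 under 75% it was 0.86. Median lengths of these groups were 8460, 9120 and 12384 bases. At least 2-fold higher in black were 7 of the 33, 21 of the 52 and 6 of the 13, where 43 of all 124 compared giant sequences were. Where along a sequence the uncovered bases lay cannot be told from the deposited shares.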

How the data were processed

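Per the labels' protocols, TRIzol RNA of back skin was enriched on oligo(dT) beads, fragmented and made into Illumina libraries. How strand was handled, and which aligner, counting program, build and annotation served: not given in the sources used here. The lists deposited by the authors give, per the file headers, unique read counts, length, percent covered and RPKM of each Ensembl protein identifier, 1 list a library. The deposited counts sum to the header total in all 3 lists, the deposited RPKM values equal those recomputed from counts (largest relative difference 1.6e-14), and 0 lengths fail to divide by 3, hence "coding length". Identifiers missing from a list were taken as 0 reads. The members and settings were chosen with earlier results of these data known.

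Differences used a pseudocount of 1, at least 1 RPKM in either library and a 2-fold threshold. The lowess curve (fraction 0.3, 3 robust iterations) was fitted on all compared sequences, and intervals are exact at 95%. Calls, intervals and curve were run on simulated data with counting error alone and a trend linear in log2 length. Such data cannot show how they behave with spread between animals or a curved trend. The rule for named sequences takes the 5 longest, the 10 most abundant, the 5 highest and 5 lowest differences of each comparison, the 4 on each side of the length minimum and those 2-fold apart from both other libraries. Identifiers are printed for the 2 highest and 2 lowest length-adjusted differences of black from the mean of the others. Sequences described for their coverage were chosen after their values were seen. Alternatives were pseudocounts, floors, scaling, thresholds, trend removal, length minimums and matching rules. No nucleotide or protein sequence of these identifiers was used here. Tools were statsmodels 0.14.6 (lowess), SciPy 1.17.1 (intervals), matplotlib 3.10.9, pandas 2.3.3 and NumPy 2.4.6 under Python 3.11.15.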

Additional observations from a re-analysis of the deposited data

How the results depend on the processing

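Of 135 alternative values for group results, 96 stayed within tolerance (1.5 times for counts, 0.1 in log2, 2 points of coverage). Giant sequences 2-fold higher in black than in white numbered 43, but 19 with a pseudocount of 5, 8 at 4-fold, 9 after lowess removal with either fraction, and 11 after subtracting the median of 5000 to under 7500 bases. The lower calls went from 0 to 2, 2 and 1 under those 3 removals. Against chinchilla the 38 became 19, 7, 8 (fraction 0.3), 10 (fraction 0.1) and 11, with 6, 6 and 3 lower instead of 0. The 1 sequence higher in chinchilla than in white became 2 with a pseudocount of 0.1 or by counting intervals beyond 2-fold, and 0 at 4-fold. Length minimums of 6000 and 10000 gave 69 and 23 for black against white and 62 and 18 against chinchilla, by construction of the class, and from 10000 bases 0 for chinchilla against white. Median differences of black from white were 0.94 and 0.63 with pseudocounts of 0.1 and 5, and 0.96 from 10000 bases. From chinchilla they were 0.86, 0.56 and 0.83. Subtracting the median of 5000 to under 7500 bases left medians of 0.20 against white and 0.16 against chinchilla, where lowess gave 0.04 and -0.01, so that the sign turned in the latter. Coverage differences of black became 9.27 (white) and 1.65 (chinchilla) from 6000 bases, and 8.61 over 2 sequences matched within 10% for chinchilla. Coverage gaps were -2.96 in white and -3.6 in chinchilla from 6000 bases, and, against evenly spread reads (added after seeing the data), -8.86 and -11.3. The cause of these shifts was not tested beyond construction. Of 612 alternative values for 52 named sequences, 249 moved beyond their counting interval and 0 changed the sign of a 2-fold difference. Other pseudocounts and the scaling used cannot turn such a sign, so only lowess removal bears on that 0. No paired analysis was possible because each coat colour has 1 library, so none could be left out either, and symbols for gene lists were not at hand. Depth limits the ratios of sequences with few reads: at 12933 bases, 28 reads in chinchilla and 1 in white gave a ratio of 27.7 with a counting interval from 4.58 to 1132.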
